A study of Mus musculus with 6 samples.

Results

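Melanocytes make the pigment of skin and hair, and their genes are studied here in healing wounds as a set of 10: the enzyme genes Tyr, Tyrp1 and Dct, the melanosome genes Pmel, Mlana, Slc45a2 and Oca2, the transcription factor gene Mitf, the receptor gene Mc1r and the channel gene Trpm1. They were chosen by their place in pigment biology together with measured values of these arrays, the genotype differences of Trpm1, Pmel and Tyrp1 in the contrast described here, and each was found on the array through the RefSeq accession of its probes. They had 15 probes between them, of the 26582 probes with a gene symbol. Of the 10 genes, 8 passed the filter, which asked that a probe be called well above background throughout 1 genotype or the other, and so were among the 16408 genes tested. Those 8 were detected on all 6 arrays. Slc45a2 and Oca2 were not among them.

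RNA came from wounds on the back skin of male C57/BL6 mice, 3 wild type (WT) and 3 carrying the genotype FoxO1 +/-, and each array is taken here as 1 mouse. Each mouse received 4 full-thickness wounds of 4 mm, and on day 3 the wound was taken out with a 6 mm punch, so a rim of surrounding skin with its hair follicles was included. Both groups share the strain, the sex, the shaving and the wounding, and the mice's age, the type of Foxo1 allele and the stage of the hair cycle are not given in the sources used here. The labels name no pooling of wounds, and the design text speaks of independent experiments at each mouse without saying how they map to arrays. A p-value here therefore reflects only how far these 6 arrays scatter, which may be technical in part.

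Melanin is made inside melanosomes, organelles that mature on a scaffold of Pmel fibrils. Tyr catalyses the first and rate-limiting step of melanin synthesis, and its relatives Dct and Tyrp1 act later on the way to black eumelanin. Mitf switches on many of these genes through E-box motifs and is itself raised by signals from Mc1r, the receptor for melanocyte-stimulating hormone. In furred mouse skin most melanocytes sit in the hair follicles, where pigment is made while the hair shaft grows.

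All 6 arrays lay on 1 slide. The share of spots well above background was 71.3% to 71.9% on the WT arrays and 71.3%, 70.1% and 64.3% on FoxO1 +/- replicates 1, 2 and 3, and no spot was saturated. Both Foxo1 probes were lower on every FoxO1 +/- array than on every WT array, with log2 differences of -0.48 (SE 0.14 in the fit over genes, limma adjusted p 0.65) and -0.89 (SE 0.14, limma adjusted p 0.19 over probes). All 8 genes of a basal keratinocyte list were detected on all 6 arrays. Of 14 melanocyte markers, made up of the 10 pigment genes with Sox10, Kit, Gpr143 and Slc24a5, 11 were detected on all 6 arrays and Gpr143 on 0 of 6.

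The promoters of Tyrp1 and Dct are shown because these genes had nearly the same profile over the 6 arrays, that of Tyr because its level hardly varied, and that of Trpm1 because it varied the other way. Each is the stretch of 250 bases before the gene's start in RefSeq (build GRCm38.p6), read 5′ to 3′ on the gene's strand. Capitals mark CATGTG, the E-box core that Mitf is known to bind, or its reverse complement CACATG.
Tyrp1: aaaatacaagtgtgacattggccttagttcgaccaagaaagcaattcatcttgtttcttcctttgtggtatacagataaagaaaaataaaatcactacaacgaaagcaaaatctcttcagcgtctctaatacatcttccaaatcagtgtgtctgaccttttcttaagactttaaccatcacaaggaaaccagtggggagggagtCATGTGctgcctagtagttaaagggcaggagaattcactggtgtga
Dct: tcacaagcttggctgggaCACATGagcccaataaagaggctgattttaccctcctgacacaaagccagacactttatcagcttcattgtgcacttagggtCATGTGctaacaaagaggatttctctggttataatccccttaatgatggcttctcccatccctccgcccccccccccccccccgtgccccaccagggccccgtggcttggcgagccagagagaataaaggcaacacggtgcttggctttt
Tyr: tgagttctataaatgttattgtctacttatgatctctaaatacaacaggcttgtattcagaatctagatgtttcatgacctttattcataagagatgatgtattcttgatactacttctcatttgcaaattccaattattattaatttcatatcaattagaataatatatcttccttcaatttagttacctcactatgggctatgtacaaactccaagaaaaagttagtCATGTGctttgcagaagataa
Trpm1: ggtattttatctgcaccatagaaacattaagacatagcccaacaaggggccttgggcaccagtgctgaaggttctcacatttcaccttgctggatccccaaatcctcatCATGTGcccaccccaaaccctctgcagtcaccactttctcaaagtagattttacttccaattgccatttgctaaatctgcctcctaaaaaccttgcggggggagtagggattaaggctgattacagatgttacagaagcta
The stretches lie at chr4:80833963-80834212 on the plus strand for Tyrp1, chr14:118052247-118052496 on the minus strand for Dct, chr7:87493513-87493762 on the minus strand for Tyr, and chr7:64153585-64153834 on the plus strand for the first of the 2 starts of Trpm1. Counted back from the gene's start, the core begins at -46 in Tyrp1, at -232 and -150 in Dct, at -21 in Tyr and at -141 in Trpm1. Promoters of 7 of the 10 genes were matched, those of Trpm1, Tyrp1, Tyr, Dct, Mitf, Oca2 and Mc1r. Pmel, Mlana and Slc45a2 were not matched. The 7 genes had 10 such stretches, since some have several starts, and 6 of the 10 held the core on either strand, against 12.3% of 32851 mouse promoter stretches of the same length. None of the 3 stretches of Mitf held it. The longer form TCATGTG, which contains the core, was in the stretches of Trpm1, Tyrp1, Tyr, Dct and Mc1r and in 3.25% of all stretches. The second start of Trpm1 held no CATGTG and 1 copy of another E-box, CACGTG, found in 6.02% of all stretches. These are matches of letters, and binding was not measured. The motif was looked for because Mitf is known to act on many of these genes through E-boxes. Its share among them is therefore no test of enrichment.

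Pmel, Tyrp1, Dct and Mlana shared a profile in which 2 WT wounds stood high and the third stood with the FoxO1 +/- wounds. Levels are log2 values relative to the 75th percentile of each array, on which 0 means a signal equal to that percentile, and levels of different probes cannot be compared. Errors beside differences are limma standard errors (SE). The genes were chosen with this contrast known, so their genotype differences are a description without a test.

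Pmel, the fibril protein of the melanosome scaffold, was at -1.03, -2.01 and -0.85 on WT replicates 1, 2 and 3 and at -2.15, -2.04 and -2.57 on FoxO1 +/- replicates 1, 2 and 3. WT replicates 1 and 3 were about 1 unit above WT replicate 2, and the genotypes failed to overlap by only 0.03. The group means were -1.30 ± 0.62 (SD, n = 3) and -2.26 ± 0.28 (SD, n = 3), which puts the log2 difference at -0.96 (SE 0.32) and the FoxO1 +/- signal at 0.515 of that in WT.

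Tyrp1, an enzyme of eumelanin synthesis, was at -1.19, -2.21 and -0.66 in WT wounds and at -2.33, -2.09 and -2.81 in FoxO1 +/- wounds, in the order of the replicates. WT replicate 2 lay inside the range of the FoxO1 +/- arrays. Its means were -1.35 ± 0.79 (SD, n = 3) and -2.41 ± 0.36 (SD, n = 3), a log2 difference of -1.06 (SE 0.41).

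Dct, dopachrome tautomerase, was at 1.09, -0.13 and 1.54 in WT wounds and at -0.01, -0.15 and -0.38 in FoxO1 +/- wounds on its brighter probe. WT replicate 2 was again among the FoxO1 +/- values. The log2 difference was -1.01 (SE 0.42), from 0.83 ± 0.86 (SD, n = 3) to -0.18 ± 0.19 (SD, n = 3). A second Dct probe repeated the pattern, with -0.08, -1.34 and 0.49 on the WT arrays, -1.07, -1.23 and -1.56 on the FoxO1 +/- arrays and a difference of -0.98 (SE 0.45).

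Mlana, a melanosome membrane protein needed for Pmel maturation, was at 0.69, -0.42 and 1.33 in WT wounds and at 0.02, 0.27 and -1.12 in FoxO1 +/- wounds. WT replicate 2 was below FoxO1 +/- replicates 1 and 2, and FoxO1 +/- replicate 3 was the lowest of all. The means were 0.53 ± 0.89 (SD, n = 3) and -0.28 ± 0.74 (SD, n = 3), and the log2 difference of -0.81 (SE 0.54) was smaller than the spread among the WT arrays.

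In all 4 genes WT replicate 3 was the highest array, WT replicate 1 the second and FoxO1 +/- replicate 3 the lowest, and this held with normexp background correction, quantile normalization, median scaling and the authors' value table. Averaged over the 4 genes after each was centred on its own mean, WT replicates 1, 2 and 3 were at 0.69, -0.39 and 1.14 and FoxO1 +/- replicates 1, 2 and 3 at -0.32, -0.20 and -0.92. WT replicate 2 was thus below FoxO1 +/- replicates 1 and 2 in this average. These were the 4 lower genes among the 11 melanocyte markers measured. The other 7 markers had higher values in FoxO1 +/- wounds, and the median log2 difference of the 11 was 0.06. The markers as a set were thus not lower. For the 4 genes, whole skin RNA cannot tell a change in the number of melanocytes from a change in RNA per melanocyte.

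**Figure D1:**
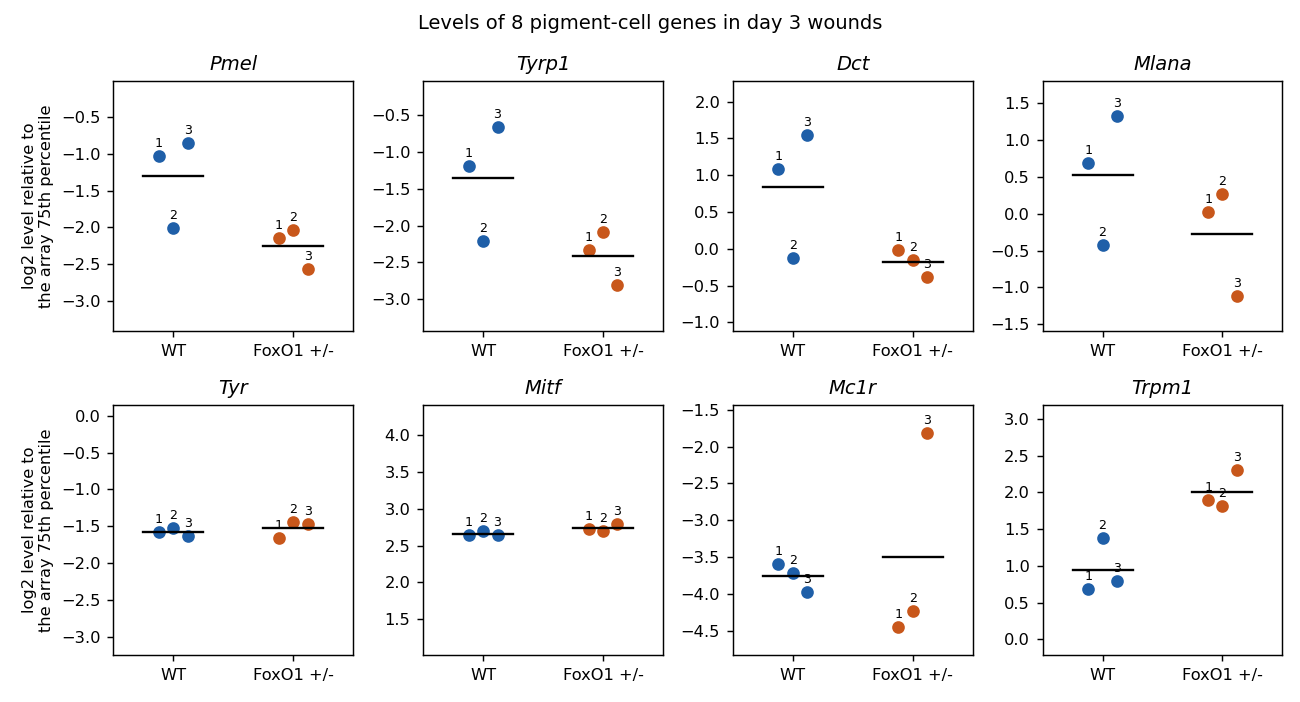
Each panel plots the log2 level of 1 gene, relative to the array's 75th percentile, on the 3 WT arrays (blue) and the 3 FoxO1 +/- arrays (orange), with the replicate number above each point and a bar at the group mean; every panel spans the same number of log2 units, and positions of panels cannot be compared between genes. In Pmel, Tyrp1, Dct and Mlana WT replicates 1 and 3 sit above the other 4 arrays, whereas Trpm1 is higher on all 3 FoxO1 +/- arrays and Tyr and Mitf are nearly level.

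Leaving out single arrays moved these differences in size and kept their sign. Without WT replicate 2 they were -1.31 for Pmel, -1.49 for Tyrp1, -1.49 for Dct and -1.29 for Mlana. None of the 4 then overlapped between genotypes, which fewer arrays make easier for any gene. Without WT replicate 3 the differences were -0.73 for Pmel, -0.71 for Tyrp1 and -0.66 for Dct. Mlana was -0.41 without WT replicate 3 and nearest to 0, at -0.39, without FoxO1 +/- replicate 3. Within slide row 1, where FoxO1 +/- replicate 1 alone stands against the 3 WT arrays, the differences were -0.86 for Pmel, -0.98 for Tyrp1, -0.84 for Dct and -0.52 for Mlana.

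Tyr, Mitf and Mc1r did not share this profile. Tyr, the first enzyme of the pathway, was at -1.58, -1.53 and -1.64 in WT wounds and at -1.66, -1.44 and -1.47 in FoxO1 +/- wounds on the probe A_66_P135323. The 6 values spanned 0.22, less than in 79% of the genes tested, and the difference was 0.06 (SE 0.09). Its other probe, A_51_P102311, printed on 10 spots of each array, was not well above background on any of the 6. Why the 2 Tyr probes part was not tested.

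Mitf, the factor that drives pigment genes and that is also made in macrophages and mast cells, was at 2.64, 2.70 and 2.64 in WT wounds and at 2.72, 2.70 and 2.79 in FoxO1 +/- wounds. The difference was 0.08 (SE 0.07) on this probe and 0.04 (SE 0.11) on the second, and the range of 0.15 over the 6 arrays was below that of 93% of genes. Mitf varied by a small fraction of the range of Tyrp1, which was 2.15.

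Mc1r was at -3.59, -3.72 and -3.97 in WT wounds and at -4.45, -4.23 and -1.81 in FoxO1 +/- wounds. FoxO1 +/- replicate 3 stood 1.78 above the next array, a 3.43-fold step, and the other 2 FoxO1 +/- arrays were the lowest of the 6. The difference was 0.26 (SE 0.69) with all arrays and -0.58 (SE 0.15) without FoxO1 +/- replicate 3, so 1 array set its sign. Without that array the genotypes did not overlap, which fewer arrays make easier for any gene. That array was above every other by more than 1.5 for 16 of the 16408 genes.

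Slc45a2 and Oca2, a transporter and a channel that act on the acidity of melanosomes, were near the detection limit. Slc45a2 was well above background on WT replicate 1 alone and Oca2 on WT replicate 3 alone. Neither was so on any FoxO1 +/- array, and the WT mean of each lay below the lowest signal called above background on the FoxO1 +/- arrays, so no fold is given. Slc45a2 was at -5.71, -6.19 and -6.06 in WT wounds and at -7.45, -7.79 and -7.17 in FoxO1 +/- wounds, without overlap. All these signals but that of WT replicate 1 were too dim to be read as levels.

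Trpm1, a cation channel gene of melanocytes and of bipolar cells in the retina, had the opposite profile on the 1 probe that detected it. On the probe A_55_P2043782 it was at 0.68, 1.38 and 0.79 on WT replicates 1, 2 and 3 and at 1.90, 1.81 and 2.30 on FoxO1 +/- replicates 1, 2 and 3. WT replicates 1 and 3, the arrays with high Pmel and Dct, were the lowest of the 6, and a gap of 0.44 parted the genotypes. The means were 0.95 ± 0.37 (SD, n = 3) and 2.0 ± 0.26 (SD, n = 3), which puts the log2 difference at 1.05 (SE 0.22) and the FoxO1 +/- signal at 2.08 times that in WT. It ran from 0.91 without FoxO1 +/- replicate 3 to 1.27 without WT replicate 2.

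The other 2 Trpm1 probes did not detect a transcript in most wounds. A_55_P2037997, designed to the same RefSeq transcript, NM_001039104, was well above background on 0 of 6 arrays. A_51_P338031, designed to NM_018752, was so on 1 array, WT replicate 1, which was the lowest on the bright probe. The genotype difference of Trpm1 thus rests on 1 of 3 probes.

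**Figure D2:**
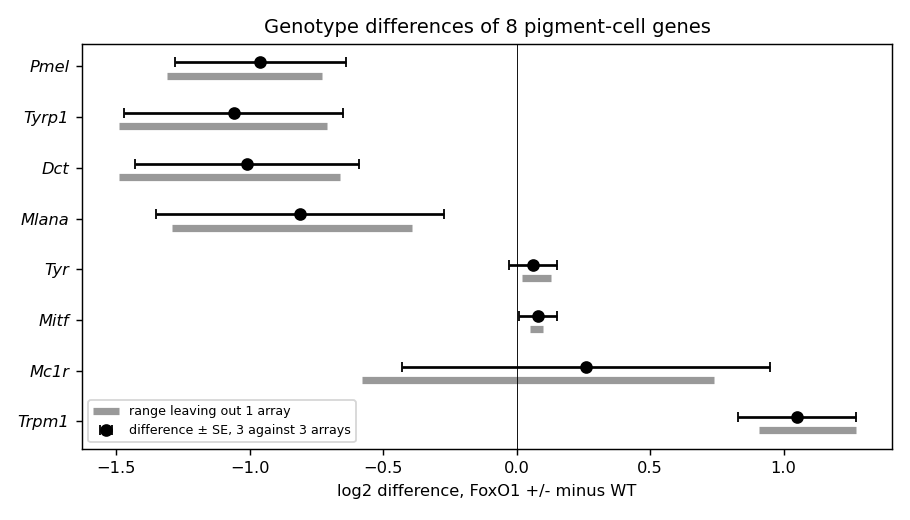
Black points give the log2 difference FoxO1 +/- minus WT with bars of 1 limma SE (3 arrays against 3), and grey bars the lowest to highest value when 1 array is left out, for 8 genes named on the vertical axis. Pmel, Tyrp1, Dct and Mlana lie below 0 and Trpm1 above 0 throughout, while the grey bar of Mc1r runs from -0.58 to 0.74.

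Of the 8 genes tested, 0 passed a limma adjusted p of 0.05, which 0.00609% of all genes passed, and 3 had an unadjusted limma p under 0.05, against 6.25% of all genes. The genotypes did not overlap in 2 of the 8, against 11.5% of all genes: 1 higher, Trpm1 (6.91% of all genes), and 1 lower, Pmel (4.56% of all genes). Nothing is read from these counts, because the genes were chosen with the contrast known. Without WT replicate 2 the genotypes did not overlap in 6, without FoxO1 +/- replicate 1 or FoxO1 +/- replicate 2 in 4, and with quantile normalization in 1, Trpm1. Fewer arrays make a lack of overlap easier for any gene. The share of all genes is not given for the settings with an array left out, so the larger counts there say nothing about the members. With median scaling the count was 2, but they were Trpm1 and Mitf, because FoxO1 +/- replicate 2 then lay above WT replicate 2 for Pmel.

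Profiles were compared by the root mean square distance between 2 genes' log2 values over the 6 arrays, each centred on its own mean. Pmel lay 0.14 from Tyrp1, 0.17 from Dct and 0.33 from Mlana, and 1.20 from Trpm1, where a gene with no variation at all would lie 0.62 from it. Pmel, Tyrp1 and Trpm1 were chosen partly for differences on these same 6 arrays, which weigh heavily in their profiles, so the distances among them are a description and support nothing. Among 15790 other named genes 3 were nearer to Pmel than Tyrp1 was, and 1 was nearer to Tyrp1 than Pmel was. Dct had 10 genes nearer to Pmel and Mlana 138. The 4 genes lie on chromosomes 10 (Pmel), 4 (Tyrp1), 14 (Dct) and 19 (Mlana).

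The named genes nearest to Pmel were Lef1 (0.09), a transcription factor of Wnt signalling in the hair germ and matrix, Hsd17b2 (0.11) and Hsd3b6 (0.15), which encode steroid dehydrogenases, Aadacl4fm5 (0.14) and Rnase12 (0.15). Nearest to Tyrp1 were Hsd3b6 (0.12), Awat2 (0.15), a wax-ester enzyme of sebaceous glands, Lef1 (0.15), Cidea (0.16), a lipid droplet protein, and Serpina3b (0.17). Lef1 was at -3.58, -4.56 and -3.24 in WT wounds and at -4.47, -4.49 and -4.95 in FoxO1 +/- wounds. Awat2 was at -1.08, -2.28 and -0.67 in WT wounds and at -2.04, -2.29 and -2.80 in FoxO1 +/- wounds. Both repeat the high WT replicates 1 and 3. With 6 arrays and 15790 genes some close profiles are to be found for any gene, and no test was made of them.

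The genes nearest to Trpm1 were Pnma2 (0.04), Akap7 (0.05), Ermn (0.07), Ifna11 (0.07) and Catsper4 (0.07). Of 16407 genes, with members and model names included, 9 lay within 0.1 of Trpm1, against 1 for Pmel and 0 for Tyrp1, Dct and Mlana. Within 0.2 there were 27 for Trpm1, 24 for Pmel, 14 for Dct, 10 for Tyrp1 and 2 for Mlana, so this contrast depends on the cutoff. Tyr and Mitf, which hardly varied, had 4296 and 5105 within 0.1. Pnma2, a gene named for a neuronal antigen, was at 2.47, 3.18 and 2.71 in WT wounds and at 3.70, 3.66 and 4.15 in FoxO1 +/- wounds, a difference of 1.05 (SE 0.22). The other probes of these genes, examined after these values were seen, gave smaller differences. Akap7, which encodes an anchor of protein kinase A, differed by 0.98 (SE 0.21) on the probe nearest to Trpm1 and by 0.08 (SE 0.10) and -0.06 (SE 0.10) on its 2 other probes. Ermn, a gene of myelin-forming oligodendrocytes, differed by 0.93 (SE 0.21) and by -0.01 (SE 0.11) on its second probe. The second Pnma2 probe differed by 0.37 (SE 0.16). Those 4 other probes of the 3 genes were detected on all 6 arrays. Ifna11 and Catsper4 had 1 probe each. What the bright Trpm1 probe and these probes have in common was not tested.

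**Figure D3:**
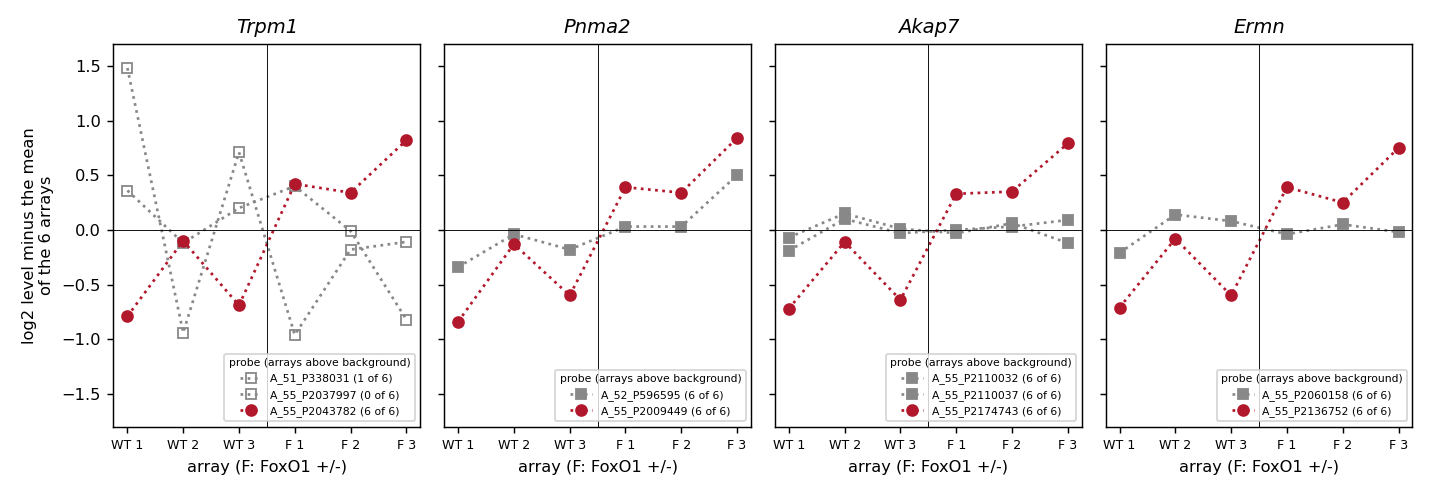
Each panel plots, for 1 gene, the log2 level of every probe on each of the 6 arrays after centring on the probe's own mean, with the probe that stands for the gene in red, other probes well above background on all 6 arrays as filled grey squares and the rest as open squares; dotted lines only join points of a probe. The red profiles of Trpm1, Pnma2, Akap7 and Ermn nearly coincide, and the other detected probes of Pnma2, Akap7 and Ermn vary less.

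Genes beside Trpm1 on chromosome 7 were compared because a change of a whole region would include them. Of the 5 nearest tested genes on each side, 0 of 10 passed a limma adjusted p of 0.05 and 0 of 10 an unadjusted p under 0.05, against 0.00609% and 6.25% of all genes, and 0 of 10 is close to that background. The nearest on either side, Klf13 (-0.09, SE 0.10) and Mtmr10 (-0.03, SE 0.08), were close to 0. The largest difference in size was that of Otud7a (-0.56, SE 0.27, limma adjusted p 0.826), which went the other way from Trpm1. It was -0.26 with normexp, -0.32 without FoxO1 +/- replicate 1 and -1.03 with the slide row as a block. Fan1 differed by 0.18 (SE 0.20), Mphosph10 by 0.08 (SE 0.12), Mcee by 0.16 (SE 0.11), Apba2 by -0.09 (SE 0.08), Peg12 by 0.24 (SE 0.13; 0.05 with the row block), Mkrn3 by 0.19 (SE 0.15) and Magel2 by -0.18 (SE 0.12). Without FoxO1 +/- replicate 1, 2 had an unadjusted p under 0.05, Magel2 and Peg12. Peg12 alone did without WT replicate 2, and Otud7a alone without FoxO1 +/- replicate 3.

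The wider pigment-cell program was followed in 6 lists of other genes, and none of their members passed a limma adjusted p of 0.05. Over these and 6 lists of other cell types, 166 distinct genes were tested. A limma unadjusted p under 0.05 was met by 18, 13 higher and 5 lower in FoxO1 +/- wounds, where 3.43% of all genes were higher and 2.83% lower at that threshold. Not all of these belong to the pigment-cell lists. Among the higher genes 5 were in the adipocyte list and 1 in the macrophage list. Among the lower genes 2 were in the follicle stem cell and germ list and 1 in the Schwann cell list. The median log2 difference of all genes was 0.01. Leaving out single arrays also moved the count of all genes at that threshold, both directions together. It was 1026 with all arrays and 908, 1493 and 764 without WT replicates 1, 2 and 3. Without FoxO1 +/- replicates 1, 2 and 3 it was 1078, 678 and 1003. The count of lower list genes was 2 without WT replicate 1 or WT replicate 3, 3 without any 1 FoxO1 +/- array and 14 without WT replicate 2, and that of higher list genes was 8 without FoxO1 +/- replicate 2. With the slide row as a block, where all WT arrays share row 1 with FoxO1 +/- replicate 1, 2 were higher and 1 lower. The count of all genes then fell too, to 478, so this drop says nothing about the list genes.

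Of 28 measured melanosome and pigment transport genes, 14 had higher and 14 lower values in FoxO1 +/- wounds, with a median of 0.01. The split was 20 higher and 8 lower with the slide row as a block and without WT replicate 2, with medians of 0.03 and 0.05. At an unadjusted p under 0.05 there were 2, both higher. Myo5a, the myosin motor that carries melanosomes along actin, differed by 0.22 (SE 0.07, limma adjusted p 0.682), and Bloc1s1, of a complex that sorts cargo to melanosomes, by 0.20 (SE 0.07, limma adjusted p 0.781; 0.13 with quantile normalization). Many of these genes act in organelles of other cells too, and the list did not follow Pmel: its mean ran from 0.70 to 0.79 on the WT arrays and from 0.74 to 0.76 on the FoxO1 +/- arrays.

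Of 21 measured melanocyte lineage factors and receptors, 11 had higher and 10 lower values, with a median of 0.02. The mean of the list was -0.28, -0.57 and -0.33 on WT replicates 1, 2 and 3 and -0.59, -0.45 and -0.54 on FoxO1 +/- replicates 1, 2 and 3, so WT replicates 1 and 3 were the highest in this mean too. With the slide row as a block 8 were higher and 13 lower, with a median of -0.13. The largest differences of the list were those of Tfap2b, Sox9, Lef1 (-0.84, SE 0.35), which is also the gene nearest to Pmel, and Tfap2a. All were lower in FoxO1 +/- wounds, with WT replicates 1 and 3 highest in each. They weigh on the mean more than on the median, so the mean does not describe the list as a whole. Tfap2b, an AP-2 factor, was at -0.74, -1.68 and -0.32 in WT wounds and at -1.67, -2.05 and -2.04 in FoxO1 +/- wounds, a difference of -1.01 (SE 0.35, limma adjusted p 0.742). WT replicates 1 and 3 were high in it as in Dct. Tfec, a relative of Mitf, differed by 0.40 (SE 0.13, limma adjusted p 0.67). Tfap2a, another AP-2 factor, differed by -0.64 (SE 0.24, limma adjusted p 0.798), and it and Tfap2b were the 2 genes lower at an unadjusted p under 0.05. Pax3, which acts on Mitf, differed by -0.29 (SE 0.13) without overlap, and Sox9, a factor that follicle stem cells also make, by -0.91 (SE 0.44). Sox10 and Kit, which mark melanocytes and also Schwann cells and mast cells respectively, differed by 0.06 (SE 0.19) and 0.27 (SE 0.13).

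Melanocortin and agouti signalling genes numbered 12, 8 higher and 4 lower, with a median of 0.03. The split was 6 and 6 with quantile normalization, with median scaling and with the slide row as a block, and 10 higher and 2 lower with normexp. Adcy6, an adenylate cyclase, differed by 0.37 (SE 0.09, limma adjusted p 0.513), and Mrap, an accessory protein of melanocortin receptors that fat cells also make, by 0.90 (SE 0.24, limma adjusted p 0.613). Mrap was at 0.96, 0.21 and 0.63 in WT wounds and at 1.12, 1.61 and 1.78 in FoxO1 +/- wounds, without overlap. An adipocyte list moved with it: 12 of 12 genes had higher values in FoxO1 +/- wounds, and the list's summed level ran from 190 to 388 in WT and from 429 to 551 in FoxO1 +/- wounds. With the slide row as a block Mrap was 0.52. The part of fat in the Mrap value was not tested.

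Of 17 other Mitf-linked genes, 10 had higher and 7 lower values, with a median of 0.06. The acid phosphatase gene Acp5 differed by 0.34 (SE 0.11, limma adjusted p 0.682) and the kinase gene Dapk2 by -0.30 (SE 0.15, limma adjusted p 0.843; -0.19 without WT replicate 1, -0.10 with the row block). Of 6 other Trpm channels measured, 2 were higher and 4 lower and 0 had an unadjusted p under 0.05, with Trpm8, the cold sensor, at 0.49 (SE 0.23, limma adjusted p 0.829; 0.23 without WT replicate 1) and Trpm4 at -0.06 (SE 0.10, limma adjusted p 0.987). With normexp, and also without WT replicate 2, 5 were higher and 1 lower, so the balance of this list is not settled. Among partners of Trpm1 in the retina, Grm6, the glutamate receptor upstream of the channel, and Gpr179 were well above background on 0 of 6 arrays. Of 7 measured partners, Rgs7 differed by 0.49 (SE 0.12, limma adjusted p 0.507) and Gnb5, which binds it, by 0.23 (SE 0.12, limma adjusted p 0.845; 0.36 without WT replicate 2), and the median was -0.01.

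Hair follicle genes also differed between the WT wounds, in 2 ways. The hair matrix and hair shaft list, 22 of 30 genes measured, had a mean of 0.78 on WT replicate 1 against -2.50 and -2.32 on WT replicates 2 and 3 and -2.79 to -2.49 on the FoxO1 +/- arrays. Its summed level ran from 12.1 to 81.2 in WT and from 10.6 to 12.3 in FoxO1 +/- wounds, and 19 of the 22 genes were highest on WT replicate 1. Krt25, Krt32 and Dsg4 were above background on 1 array at most, Shh on 2 and Krtap13 on 0. The median difference of the list was -1.03, and -0.15 without WT replicate 1. The 4 pigment genes were instead highest on WT replicate 3, where the mean of the shaft list was low. Krt28, of the inner root sheath, differed by -2.05 (SE 0.99, limma adjusted p 0.832) and Hoxc13 by -1.46 (SE 0.74, limma adjusted p 0.845), and neither had an unadjusted p under 0.05. Without WT replicate 1 they were -0.93 and -0.77. On WT replicates 1, 2 and 3 Krt28 was at 0.57, -3.52 and -2.06 and Hoxc13 at -1.28, -4.01 and -2.67. On FoxO1 +/- replicates 1, 2 and 3 Krt28 was at -3.18, -4.08 and -3.88 and Hoxc13 at -3.75, -5.00 and -3.60. These 2 genes were thus above the FoxO1 +/- arrays on WT replicate 3 too. So were Krt71, Krt35, Krt27, Krt33a and Dlx3, and the remaining genes of the list were not. Padi3, Krt36, Krtap8-1, Krt33b and Foxn1 were lowest there. Krt71 had the largest difference of the list, -4.69 (SE 2.41, limma adjusted p 0.845), and was its 1 gene without overlap. It was at 4.93, -4.35 and -3.30 in WT wounds and well above background on only 1 FoxO1 +/- array.

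In its mean the follicle stem cell and germ list came closer to the pigment genes, though it was highest on WT replicate 1. Its 11 genes had a mean of 1.55, 0.85 and 1.36 on WT replicates 1, 2 and 3 and of 0.94, 0.84 and 0.78 on FoxO1 +/- replicates 1, 2 and 3, with all 11 detected on every array and a summed level of 161 to 196 in WT and 163 to 183 in FoxO1 +/- wounds. Lhx2, a homeobox factor of follicle stem cells, was at 0.71, -1.41 and 0.43 in WT wounds and at -1.50, -1.79 and -1.68 in FoxO1 +/- wounds, a difference of -1.56 (SE 0.55, limma adjusted p 0.742). Without WT replicate 2 it was -2.22 (SE 0.13, limma adjusted p 0.016), the 1 list gene to pass in any of the alternative settings. In that setting, which drops the WT array nearest to the FoxO1 +/- values of Lhx2, 28 of the 16408 genes passed. With no array left out 1 gene did. With all arrays Lrig1 differed by -0.25 (SE 0.10, limma adjusted p 0.798). Values were higher in 3 of the 11 genes and lower in 8, with a median of -0.25. Beside Lhx2 the largest differences were those of Sox9 (-0.91), Krt15 (-0.77) and Lgr5 (-0.70). The higher genes were Postn (0.26), Cd34 (0.10) and Tcf7l1 (0.05). The likeness in the mean thus rests much on a part of the list. The part of follicle content in the pigment-gene differences was not tested.

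Schwann cells share Sox10 with melanocytes, and their list did not follow Pmel. Of 14 measured genes 6 were higher and 8 lower, with a median of -0.02. The split was 8 higher and 6 lower with normexp, and 4 higher and 10 lower with the slide row as a block. The list's mean was 0.13, 0.08 and 0.38 in WT wounds against 0.02, 0.25 and 0.21 in FoxO1 +/- wounds. Its summed level was 43.8 to 52.6 in WT and 43.3 to 51.5 in FoxO1 +/- wounds. Egr2 differed by -0.43 (SE 0.12, limma adjusted p 0.636) and Erbb3 by -0.34 (SE 0.22, limma adjusted p 0.897). With the row block they were -0.17 and -0.01, and Erbb3 was -0.14 without WT replicate 1 and -0.21 without FoxO1 +/- replicate 3. Macrophages, which also make Mitf, had 10 of 11 genes higher, with a median of 0.14 and a summed level of 351 to 359 in WT and 375 to 392 in FoxO1 +/- wounds. Lyz2 differed by 0.25 (SE 0.10, limma adjusted p 0.798) and C1qb by 0.14 (SE 0.07, limma adjusted p 0.829). Of 8 basal keratinocyte genes 2 were higher and 6 lower, with a median of -0.06. The split was 7 higher and 1 lower without FoxO1 +/- replicate 2, and 1 higher and 7 lower without FoxO1 +/- replicate 3. Without WT replicate 1 it was 5 higher and 3 lower, so the balance of this list is not settled. Its summed level was 481 to 616 in WT and 419 to 616 in FoxO1 +/- wounds. Krt5 differed by -0.27 (SE 0.18) and Col17a1 by -0.18 (SE 0.24), with limma adjusted p-values of 0.9 and 0.979. Krt5 was -0.16 without WT replicate 1 or FoxO1 +/- replicate 2 and -0.45 without FoxO1 +/- replicate 3. In the adipocyte list Retn differed by 1.56 (SE 0.26, limma adjusted p 0.369) and Lipe by 0.63 (SE 0.19, limma adjusted p 0.667). With the row block Lyz2 was 0.11 and Lipe 0.41.

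**Figure D4:**
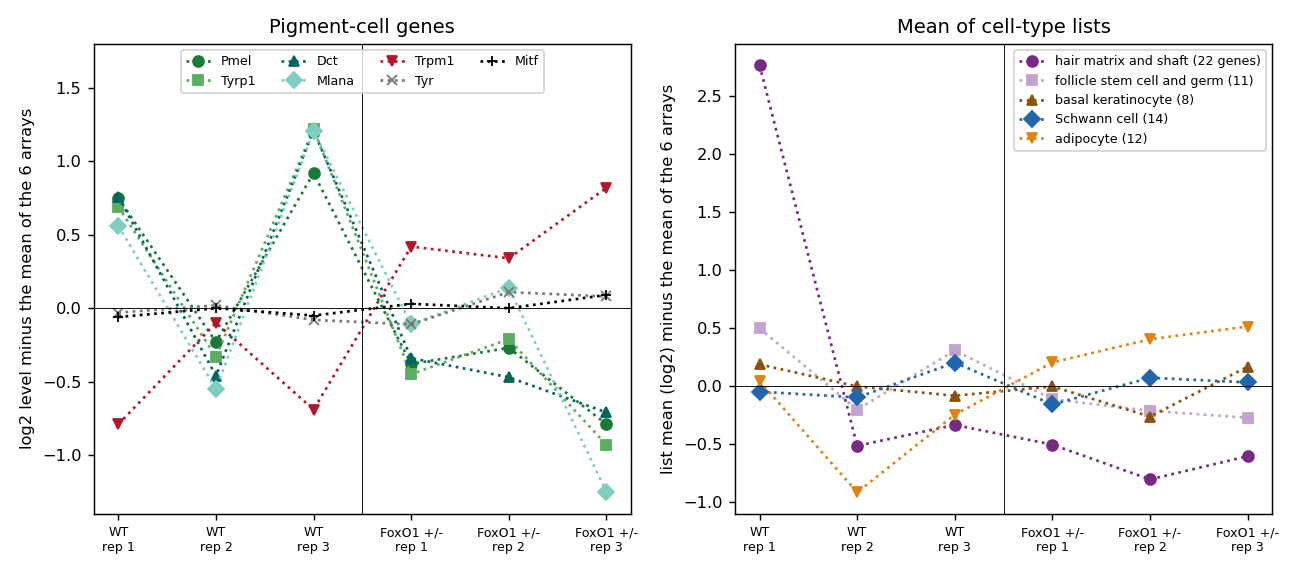
The left panel plots 7 pigment-cell genes and the right panel the means of 5 cell-type lists on each of the 6 arrays, as log2 values minus their own mean over the arrays; dotted lines only join points of a gene or list. Pmel, Tyrp1, Dct and Mlana are high on WT replicates 1 and 3 and Trpm1 is low there, whereas the hair matrix and shaft list is high on WT replicate 1 alone, at 0.78 before centring, and the adipocyte list is lowest on WT replicate 2.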

How the data were processed

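One-colour Agilent arrays measured RNA from 3 WT and 3 FoxO1 +/- wounds, labelled from 200 ng. The deposited scanner files hold spot intensity on a linear scale, extracted with Feature Extraction 10.7.1.1 per the file headers, while the submitters' processing notes name version 9.1. Their processed signal is background-subtracted within an array and not scaled between arrays, and flags (outlier, saturated, well above background) are the authors', per the file headers. A second deposited table repeats the same intensity to within 0.5%, uncentred and unlogged, with column medians of 82.4 to 112.

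Signals were converted to log2, outlier-flagged spots were left out, spots of a probe were averaged, and each array's 75th percentile was subtracted. Of 55681 probes, 36 lacked an unflagged value on some array. Accessions were matched to RefSeq symbols (GRCm38.p6). The brightest kept probe stood for a gene. The fit was limma 3.58.1 in R 4.3.3 over 16408 genes, two-sided, with Benjamini-Hochberg adjustment over all of them, checked on simulated data. The 3 arrays a group limit the precision. Genes and lists (184 symbols in 12 lists) were chosen with earlier results of these data known. Named were the 10 genes, in each list the 2 genes with the smallest p plus any past an adjusted p of 0.05, the 10 neighbours of Trpm1, and the 5 nearest profiles to Trpm1, Pmel and Tyrp1, clone and model names passed over. Sox10, Kit, Tfap2a, Pax3, Sox9, Krt15, Lgr5, Postn, Cd34, Tcf7l1, Padi3, Krt36, Grm6 and Gpr179, and genes named as undetected, were added after their values were seen. Normexp used median spot signals with an offset of 50. The alternatives are given at the end.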

Additional observations from a re-analysis of the deposited data

How the results depend on the processing

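The differences of Trpm1, Pmel, Tyrp1, Dct, Mlana and Mitf kept their sign in every alternative run: normexp, quantile and median scaling, the authors' value table, filters on dim probes, the mean of a gene's probes, the blocks and leaving out each array. Mc1r was -0.58 without FoxO1 +/- replicate 3, at most 0.74 when another array was left out, and -0.69 when the slide's rows were fitted as a block or row 1 was used alone, and Tyr was -0.08 in both. In the row settings FoxO1 +/- replicate 1 stands alone and is assumed to vary like the others. Genes without overlap among the 10 numbered 1 with quantile normalization, 3 with no filter on dim probes, which let in Slc45a2, and 2 to 6 when single arrays were left out. List genes past a limma adjusted p of 0.05 numbered 0 to 1 when single arrays were left out. At an unadjusted p under 0.05, higher list genes numbered 2 with the slide row block and within row 1, and 8 to 18 leaving out arrays. Lower ones numbered 3 with the mean of all kept probes, 1 with the row block and within row 1, 10 with the replicate number as a block, and 2 to 14 leaving out arrays. Neighbours of Trpm1 at that threshold numbered 1 with normexp (Mkrn3), 1 with the row block and within row 1 (Otud7a), and 0 to 2 leaving out arrays. Whether the replicate numbers pair the mice is not stated in the labels. Deviations of same-numbered arrays from their group means correlated at -0.07, -0.14 and -0.30, and 0 arrays correlated best with their own number. Such deviations sum to 0 within a group, so these values cannot settle the pairing. Signs also turned for Col17a1 (0.00 without WT replicate 1, -0.33 to 0.02 over single arrays left out), Erbb3 (0.03, normexp), Fan1 (-0.08 with mean probes, -0.01 to 0.35 over single arrays left out, -0.18 in both row settings), Magel2 (0.02 normexp, 0.03 in both row settings), Mphosph10 (-0.07 in both row settings), Mtmr10 (-0.07 to 0.02 over single arrays left out, 0.00 without FoxO1 +/- replicate 3) and Trpm4 (0.01 normexp, -0.11 to 0.03 over single arrays left out). The causes were not tested. Ranking by Pearson correlation kept 4 of the 5 genes nearest to Trpm1, 2 for Pmel and 1 for Tyrp1. Slc45a2, Oca2 and 2 Trpm1 probes are limited by signal over background.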
